A study of Homo sapiens with 12 samples.

Results

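The genes described here are 48 genes of autophagy, the lysosome and the vacuolar proton pump (V-ATPase), taken by gene symbol from a table of 60664 genes. They were divided by role into 3 TFEB-family transcription factors, 12 genes of autophagosome initiation, 10 genes of the conjugation machinery and the Atg8 family, 4 autophagy receptors, 3 lysosomal membrane proteins, 7 lysosomal hydrolases and 9 V-ATPase subunits. Each symbol matched an Ensembl identifier of the table, and 47 of the 48 passed the filter on low counts. The exception was CTSL, which encodes the protease cathepsin L and had 0 counts in each of the 12 libraries, where a count of 0 allows up to 3 counts per library.

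The study sequenced poly(A) RNA of TOM-1 and RS4;11, established lines of B-cell acute lymphoblastic leukaemia that the labels call lymphoblasts of wild-type genotype. TOM-1 carries the BCR-ABL1 fusion of the Philadelphia chromosome and RS4;11 a rearrangement of KMT2A, so each genotype stood on 1 cell line. Log-phase cells were grown for 24 h without drug or in the presence of ADI-PEG20 at 1000 ng/ml, a pegylated arginine deiminase that removes extracellular arginine. Each line was sequenced in both conditions with 3 libraries per group, which gives 4 groups. The labels do not say that the 3 came from separate cultures, so p-values measure the spread between these libraries, which may be technical.

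Autophagy encloses cytoplasm in a double membrane and delivers it to the lysosome, where hydrolases break it down and return amino acids to the cell. When amino acids run low, the kinase mTORC1 loses activity at the lysosomal surface, the ULK1 kinase complex is released to start autophagosomes, and the transcription factors TFEB, TFE3 and MITF enter the nucleus. These factors bind E-box sequences of the CLEAR type in promoters of lysosomal and autophagy genes. The V-ATPase acidifies the lysosome with a membrane sector (V0) that carries protons and a cytosolic sector (V1) that hydrolyses ATP.

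Libraries held 18958144 to 35956959 counts. TOM-1 control replicate 3 stood apart. Genes with at least 1 count numbered 14963 there and 19857 to 21997 elsewhere, and ribosomal protein genes took 19.7% of its counts, against 5.89% to 9.86% elsewhere. Its log2 CPM (counts scaled to library size) correlated with the other TOM-1 controls at 0.921 to 0.926, against 0.975 or more in all other replicate pairs. The fold changes and counts below were computed with this library and, where a value without it is given, again without it. Of 7 B-lineage markers (CD79A, CD79B, PAX5, CD22, EBF1, VPREB1, DNTT), none was at 0 in any group, and their summed level was 5115 to 6224 CPM in TOM-1 and 1692 to 2016 CPM in RS4;11. In TOM-1, EBF1 rose by 0.98 on the log2 scale under the drug (adjusted p 0.00535; 0.70 without control replicate 3) and VPREB1 fell by 1.22 (adjusted p 0.0157; -0.50), while CD79B passed only without control replicate 3 (0.74). The 4 T-cell markers summed to at most 0.319 CPM, and 4 myeloid markers (LYZ, MPO, CD14, CSF1R) to 10.2 to 26.7 CPM. Of the myeloid markers, CSF1R fell in TOM-1, from 4.09, 4.17 and 4.36 CPM to 0.385, 0.573 and 0.393 CPM (log2 -3.20, adjusted p 4.49e-06; -3.18 without control replicate 3). The part of these marker changes in the member results was not tested. The KMT2A-leukaemia genes HOXA9 and MEIS1 were at 0 in TOM-1 and summed to 140 to 159 CPM in RS4;11.

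Under ADI-PEG20, 20 of the 47 members tested changed in TOM-1 and 27 did not pass, while in RS4;11 none passed with all libraries and ATP6V0B alone without TOM-1 control replicate 3. The receptor genes and MAP1LC3B, which encodes the autophagosome protein LC3B, rose together by 1.98-fold to 3.33-fold, while the hydrolase genes GAA and CTSA and the V0 genes ATP6V0D1 and ATP6V0E1 fell. The kinase gene ULK1 also fell, and TFE3 rose. As a share of all counts, the 48 genes took 0.254%, 0.255% and 0.259% in TOM-1 controls and 0.351%, 0.352% and 0.355% in treated TOM-1, with no overlap. In RS4;11 they took 0.246%, 0.240% and 0.242% in controls and 0.242%, 0.242% and 0.245% under the drug, and the groups overlapped. These are shares of raw counts, without the TMM scaling used for CPM. The TMM factors were 0.98, 0.99 and 0.82 in TOM-1 controls and 1.07, 1.06 and 1.09 in treated TOM-1. Scaling by them would narrow the gap in TOM-1, most of all for control replicate 3. In such bulk samples, fewer cells of a type and less RNA per cell cannot be told apart.

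In TOM-1, 20 of the 47 members tested passed an adjusted p of 0.05 in edgeR, 12 higher and 8 lower, against 31.9% of all 17349 genes tested (15.9% higher and 15.9% lower). The members called were thus 42.6% of those tested, 25.5% higher and 17.0% lower. Without TOM-1 control replicate 3, 29 passed, 21 higher and 8 lower, with a background of 41.6% (21.8% higher and 19.8% lower) beside 61.7% of the members (44.7% higher and 17.0% lower), and all 20 genes called with every library were among them. The median log2 fold change of the members was 0.20, and 0.28 without that library, against 0.05 and 0.00 over all genes. The libraries of control and treated TOM-1 did not overlap for 25 of the 47 members (46.2% of all genes), and for 36 without control replicate 3 (59.0%). Leaving out any 1 of the treated TOM-1 libraries lowered the 20 calls to 12 or 13, and the share of all genes called in those fits is not given here. The share of counts from ribosomal protein genes also moved with treatment in TOM-1, at 5.89% to 6.03% under the drug against 8.92% and 9.19% in control replicates 1 and 2, and its part in these results was not tested.

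In RS4;11, 0 of the 47 members passed (background 0.0%), with 0 at an unadjusted p under 0.05 and 0 by the Wald test of DESeq2. Both tests estimate the spread of a gene over all 12 libraries, TOM-1 control replicate 3 among them. Changes in RS4;11, not only small ones, could therefore be missed, as they were in TOM-1 of the simulated data described under processing. Over all genes, 325 had an unadjusted p under 0.05. Without TOM-1 control replicate 3, 3 members (ATG12, LAMP2 and ATP6V0B) and 2207 genes did. In that fit ATP6V0B fell by 0.28 on the log2 scale (SE 0.06, adjusted p 0.0431) and no other member passed, against a background of 0.317% (0.202% higher and 0.115% lower). The median log2 fold change of the members in RS4;11 was -0.02. The difference of the effects between the lines passed for 9 members, 7 higher and 2 lower in TOM-1 (background 11.9%, with 5.89% higher and 6.05% lower), and without control replicate 3 for 25, 20 higher and 5 lower (background 30.4%, with 15.7% higher and 14.7% lower).

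**Figure D1:**
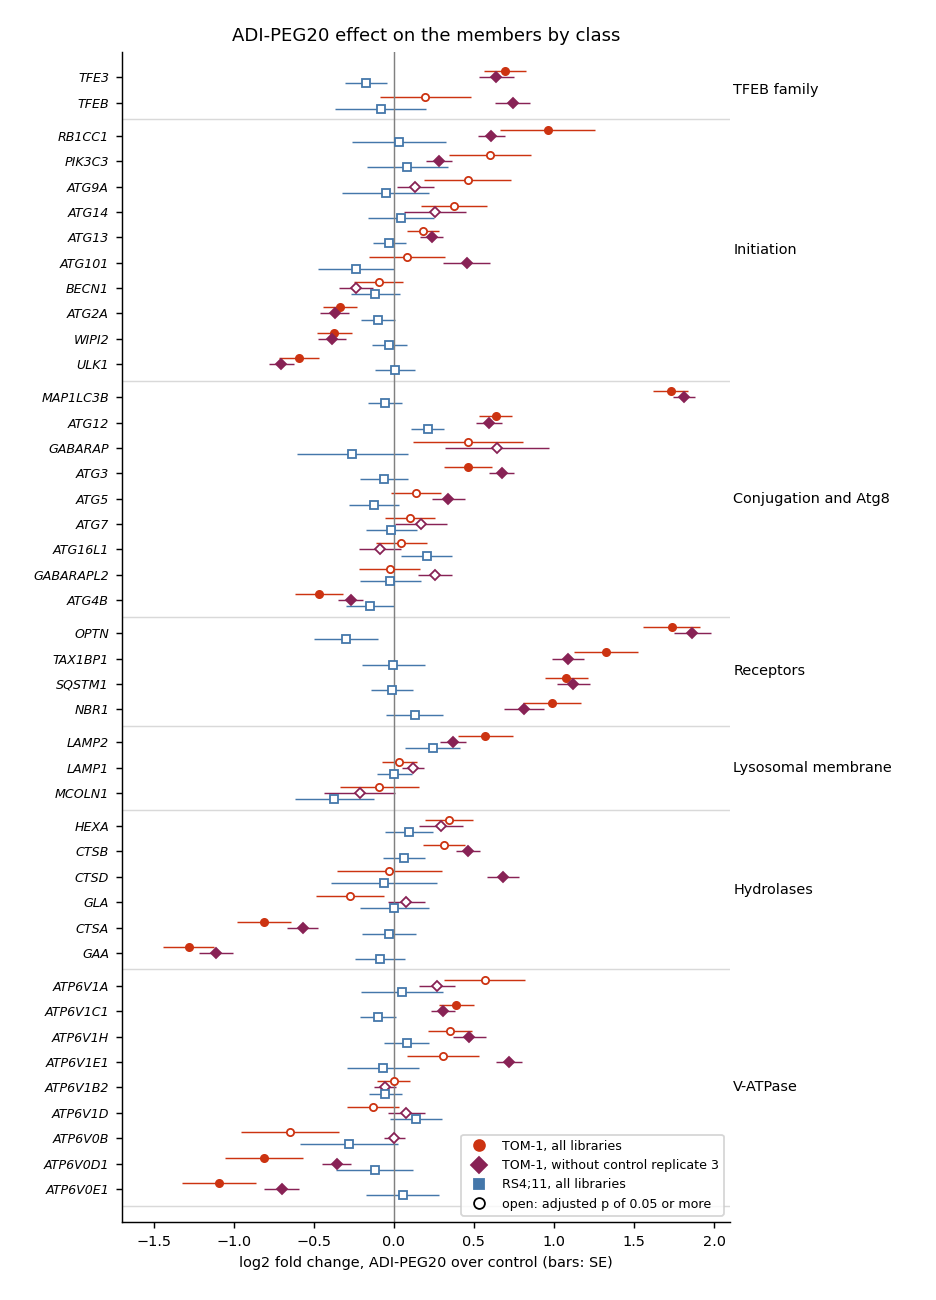
Log2 fold changes (ADI-PEG20 over control, horizontal axis, bars are SE) of 43 members by class, for TOM-1 with all libraries (circles), TOM-1 without control replicate 3 (diamonds) and RS4;11 (squares); filled symbols passed an adjusted p of 0.05. CTSL, ULK2, WIPI1, MITF and GABARAPL1, at or near 0 counts in TOM-1 controls, are left out; the 4 receptors and MAP1LC3B stand to the right in TOM-1, and no RS4;11 symbol is filled.

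Of the TFEB-family factors 1 of 3 passed in TOM-1 (33.3%, against 31.9% of all genes), and 2 without control replicate 3 (66.7%, against 41.6%). TFE3 stood at 41.4, 46.0 and 38.7 CPM in TOM-1 controls and at 68.8, 69.5 and 66.2 CPM under ADI-PEG20. All treated libraries lay above all controls, and the rise was 1.62-fold (log2 0.70, SE 0.13, adjusted p 0.00195; 0.64 without control replicate 3). In RS4;11, TFE3 was lower, at 28.4, 24.2 and 30.8 CPM in controls and 21.8, 26.3 and 25.9 CPM under the drug, and these groups overlapped. The TFE3 effect was larger in TOM-1 than in RS4;11 by 0.87 on the log2 scale (SE 0.19, adjusted p 0.0112), and by 0.82 without control replicate 3.

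TFEB, the factor for which the family is named, gave 36.3, 34.6 and 84.9 CPM in TOM-1 controls and 62.1, 60.6 and 55.6 CPM under the drug. The high control was replicate 3, and the other controls lay below every treated library. With it the log2 fold change was 0.20 (SE 0.28, adjusted p 0.658), and without it TFEB rose by 0.74 (SE 0.11, adjusted p 1.01e-05). RS4;11 showed 40.8, 35.9 and 48.4 CPM in controls and 36.6, 40.9 and 40.6 CPM under the drug, which overlapped. MITF, better known from melanocytes, was barely present, at 0.227, 0.624 and 0 CPM in TOM-1 controls and 3.17, 0.955 and 0.944 CPM under the drug. Its summed counts were 24 and 123, a ratio of 5.40 (95% exact interval 3.46 to 8.74, counting error only; 4.16 without control replicate 3), and the change did not pass (adjusted p 0.0734, and 0.0529 without control replicate 3).

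Promoter sequences from RefSeq (GRCh38.p14, 250 bases before to 50 after a gene's start) were found for 39 of the 48 members and searched on both strands for the E-box hexamer CACGTG that the family binds. It was in 9 of the 39 (23.077%), against 7.435% of 27305 promoters, and its longer palindrome TCACGTGA in 6 (15.385%) against 1.036%. The full CLEAR palindrome, which contains both, was in 2 member promoters, those of GAA and MCOLN1 (5.128% against 0.381%). The element TGATGNAA, a core of sites for C/EBP and ATF dimers, was in 0 of 39, against 3.673% of all promoters. A match is a description of these letters and not of a bound site. The members were chosen as lysosomal and autophagy genes, whose promoters the family is known to bind, so these shares are not a test.

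The sequences below show the hexamer in capitals, 5′ to 3′ on the strand of the gene, for members whose RNA fell (GAA, CTSA, ATP6V0D1), rose (ATG3) or did not pass in TOM-1 (LAMP1, MCOLN1). For GAA and CTSA 2 sites each are shown and for ATP6V0D1 and ATG3 a single site, as 30 bases around the hexamer (a lone capital at an edge belongs to the neighbouring hexamer), and for LAMP1 and MCOLN1 the 198 bases that end 3 bases before the start, a stretch that held no exon of GENCODE release 29. Exons of that release, of any gene on either strand, covered all 30 bases of the CTSA, ATP6V0D1 and ATG3 stretches. In the GAA stretches they covered 0 and 12 bases.
GAA, chr17:80101493-80101522, plus strand: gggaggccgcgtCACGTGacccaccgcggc
GAA, chr17:80101538-80101567, plus strand: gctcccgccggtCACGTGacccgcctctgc
CTSA, chr20:45891281-45891310, plus strand: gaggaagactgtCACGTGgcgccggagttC
CTSA, chr20:45891298-45891327, plus strand: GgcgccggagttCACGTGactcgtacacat
ATP6V0D1, chr16:67481199-67481228, minus strand: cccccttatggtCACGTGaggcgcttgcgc
ATG3, chr3:112561963-112561992, minus strand: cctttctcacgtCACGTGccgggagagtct
LAMP1, chr13:113297039-113297236, plus strand: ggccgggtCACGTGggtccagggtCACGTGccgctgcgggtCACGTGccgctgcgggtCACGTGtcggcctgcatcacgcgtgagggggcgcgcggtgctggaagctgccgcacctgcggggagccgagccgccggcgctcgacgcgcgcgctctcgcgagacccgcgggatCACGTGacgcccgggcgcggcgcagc
MCOLN1, chr19:7522424-7522621, plus strand: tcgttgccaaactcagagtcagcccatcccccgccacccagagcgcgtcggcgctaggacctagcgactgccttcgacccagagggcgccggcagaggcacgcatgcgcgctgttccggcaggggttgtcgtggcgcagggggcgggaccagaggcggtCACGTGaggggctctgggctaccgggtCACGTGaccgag
In GAA the hexamers begin at bases -76 and -31 from the start, in CTSA at -42 and -25, in ATP6V0D1 at -59 and in ATG3 at -18, with a further one in ATG3 at base 6 after the start. LAMP1 held 6 hexamers in the 300 bases searched, the most of any member, of which 5 are in the window shown. The other members with the hexamer were ATP6V0B, CTSD and ATG14.

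The promoters with the hexamer went with both directions of change in TOM-1. Of the 9 members that held it, 1 was higher (ATG3) and 3 were lower (GAA, CTSA and ATP6V0D1), with a median log2 fold change of -0.09. Without control replicate 3, 2 were higher, with CTSD added, and the same 3 were lower, with a median of 0.00. Of 29 tested members without the hexamer, 8 were higher and 4 lower (median 0.20), and 14 and 4 without control replicate 3 (median 0.34). The promoters of TFE3, MAP1LC3B, SQSTM1, NBR1, TAX1BP1, OPTN and WIPI1, which rose, held no hexamer in these windows.

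**Figure D2:**
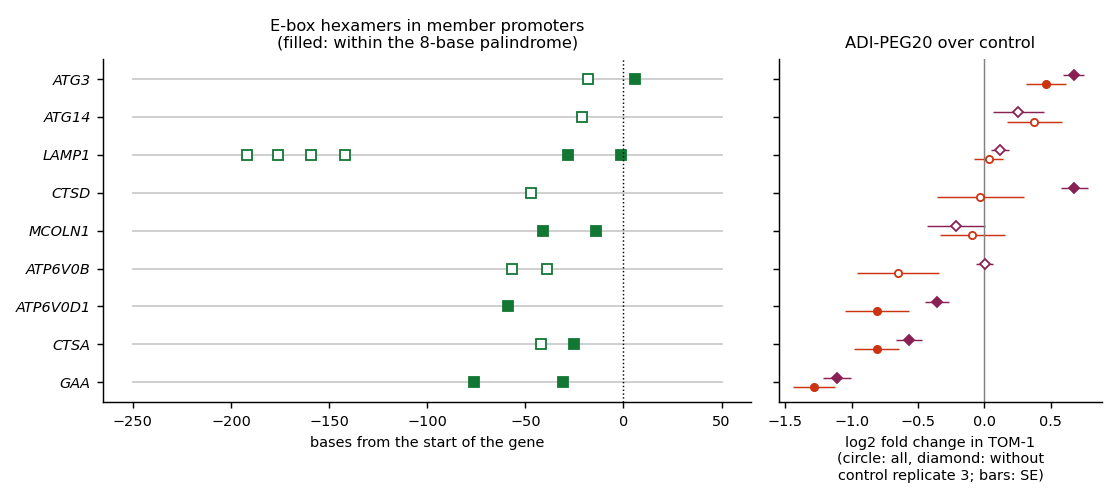
Left, positions of the E-box hexamer in bases from the start of the gene (horizontal axis) for the 9 member promoters that hold it, filled where it lies within the 8-base palindrome; right, log2 fold change in TOM-1 with all libraries (circles) and without control replicate 3 (diamonds), bars are SE, filled where the adjusted p was under 0.05. Members with hexamers range from GAA at -1.28 to ATG3 at 0.46.

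Among the 12 initiation genes, 2 rose and 3 fell in TOM-1 (median log2 fold change 0.13), and without control replicate 3, 5 rose and 3 fell (median 0.19). The shares called were 41.7% and 66.7% of the class, against 31.9% and 41.6% of all genes. ULK1, the kinase that starts autophagosome formation, gave 117, 118 and 92.3 CPM in controls and 76.8, 72.2 and 68.3 CPM under ADI-PEG20. All treated libraries lay below all controls, a fall of 0.59 on the log2 scale (SE 0.13, adjusted p 0.00425), and of 0.70 without control replicate 3, and RS4;11 stayed between 109 and 129 CPM in its 6 libraries. The difference between the lines was -0.60 (SE 0.18, adjusted p 0.0503), which missed the threshold, and -0.71 without control replicate 3 (adjusted p 2.40e-05). RB1CC1, the scaffold FIP200 of the ULK1 complex, moved the other way, at 111, 116 and 39.7 CPM in controls and 170, 174 and 177 CPM under the drug. Its low control was replicate 3, and the log2 rise was 0.96 (SE 0.30, adjusted p 0.0267) with it and 0.61 (SE 0.08, adjusted p 3.25e-06) without it.

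WIPI1, which binds phosphatidylinositol 3-phosphate on the forming membrane, went from near 0 to a low level. Its counts were 0, 3 and 0 in TOM-1 controls and 61, 78 and 93 in treated TOM-1, or 2.61, 2.98 and 3.66 CPM. The ratio of summed counts, scaled to library size, was 81.4, with a 95% exact interval of 27.5 to 398 for counting error only (62.8, 21.2 to 306.5, without control replicate 3), and the change passed (adjusted p 0.000214, and 2.71e-06). In RS4;11 the gene stood at 1.07, 1.61 and 1.05 CPM in controls and 2.43, 2.43 and 1.23 CPM under the drug, and these groups overlapped (adjusted p 1.0). Its summed counts there were 86 and 135, a ratio of 1.65 (95% exact interval 1.25 to 2.19, counting error only). Exons of other genes on the opposite strand cover 28.1% of the exonic bases of WIPI1, and the use of strand in counting is not given in the sources used here. Its relative WIPI2 fell by 0.37 (SE 0.11, adjusted p 0.0225, and -0.39 without control replicate 3) and the lipid transfer protein gene ATG2A by 0.34 (SE 0.11, adjusted p 0.0314, and -0.37). These falls depended on the scaling. As TPM (scaled by transcript length, without TMM factors), WIPI2 averaged 23.2 in TOM-1 controls and 23.97 under the drug, and ATG2A 22.7 and 23.95. Over control replicates 1 and 2 the TPM were 26.1 and 25.8, above the treated means.

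ATG13, ATG101 and PIK3C3 passed only without control replicate 3, with log2 fold changes of 0.24, 0.45 and 0.28, against 0.18, 0.08 and 0.60 with it. BECN1, ATG14 and ATG9A passed in neither fit. ULK2, the second ULK kinase gene, had 0 counts in all 6 TOM-1 libraries, so that no fold can be read in TOM-1. The fit gave it 0.0 on the log2 scale, and it is counted among the members tested that did not pass. Without ULK2 and WIPI1 the medians of the class stayed at 0.13 and, without control replicate 3, 0.19. In RS4;11 it gave 3.22, 2.31 and 4.30 CPM in controls and 4.54, 3.98 and 4.25 CPM under the drug.

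In the conjugation and Atg8 class, 3 genes rose and 1 fell (median log2 fold change 0.30), and 4 rose and 1 fell without control replicate 3 (median 0.47). With all libraries 4 of the 10 genes were thus called (40.0%, against 31.9% of all genes). Without control replicate 3 it was 5 of 10, against 41.6% of all genes. MAP1LC3B encodes LC3B, the ubiquitin-like protein that is joined to lipid on the autophagosome. It gave 81.1, 82.3 and 96.7 CPM in TOM-1 controls and 286, 287 and 289 CPM under ADI-PEG20. Control replicate 3 lay with the other controls here, and the rise was 3.31-fold (log2 1.73, SE 0.11, adjusted p 1.66e-06; 1.81 without control replicate 3). RS4;11 gave 84.5, 80.6 and 77.2 CPM in controls and 75.8, 79.8 and 77.9 CPM under the drug, all below treated TOM-1. The difference of the effects was 1.78 (SE 0.15, adjusted p 7.11e-05), and 1.87 without control replicate 3. Of the 50-base words of MAP1LC3B transcripts, 4.8% also occur in genes elsewhere, among them MAP1LC3B2, whose own counts were 2, 4 and 15 in TOM-1 controls and 30, 31 and 32 under the drug.

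ATG12, the ubiquitin-like protein that joins ATG5, gave 52.6, 50.3 and 47.3 CPM in TOM-1 controls and 76.0, 81.6 and 75.7 CPM under the drug, a rise of 0.64 (SE 0.10, adjusted p 0.00069), and of 0.59 without control replicate 3. ATG3, the enzyme that passes Atg8 proteins to lipid, gave 74.7, 73.9 and 110.0 CPM in controls and 118, 124 and 114 CPM under the drug. The groups did not overlap for ATG3, but the gap to control replicate 3 was small, and the log2 rise was 0.46 (SE 0.15, adjusted p 0.035) with it and 0.67 (SE 0.08, adjusted p 3.22e-07) without it. The call of ATG3 was lost in 11 of the 12 fits that left out a library. ATG4B, the protease that trims Atg8 proteins, fell by 0.47 (SE 0.15, adjusted p 0.0331; -0.27 without control replicate 3). ATG5 passed only without control replicate 3 (log2 0.34, SE 0.10), and ATG7 and ATG16L1 in neither fit.

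The other Atg8 genes did not pass in TOM-1. GABARAPL2 had log2 fold changes of -0.03 and, without control replicate 3, 0.26 (adjusted p 0.0615), and GABARAP of 0.46 and 0.64 at 3.01 to 9.60 CPM. GABARAPL1 had 15 counts over the 3 TOM-1 controls and 39 over the treated libraries, against 239 and 240 in RS4;11. Of GABARAP's exonic bases, 30.5% lie in exons of another gene on the same strand and 25.2% on the opposite strand.

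All 4 receptor genes rose in TOM-1, with a median log2 fold change of 1.20 (1.11 without control replicate 3). Over all genes, 15.9% were called higher, and 21.8% without that library. Receptors bind ubiquitin on cargo and LC3 on the autophagosome, and all 4 encode proteins of this type. SQSTM1, which encodes p62, gave 81.5, 72.5 and 84.8 CPM in TOM-1 controls and 160, 178 and 166 CPM under the drug, a rise of 1.08 (SE 0.13, adjusted p 0.000133), and of 1.12 without control replicate 3. RS4;11 gave 80.4, 91.9 and 66.9 CPM in controls and 74.5, 83.7 and 78.6 CPM under the drug, all below treated TOM-1.

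OPTN, which encodes optineurin, a receptor for mitochondria and bacteria, gave 35.9, 39.0 and 48.2 CPM in TOM-1 controls and 131, 145 and 133 CPM under the drug. The rise was 3.33-fold (log2 1.74, SE 0.18, adjusted p 3.86e-05; 1.86 without control replicate 3). RS4;11 held 3.26, 4.24 and 2.73 CPM in controls and 2.83, 3.26 and 2.25 CPM under the drug. OPTN was the member with the largest gap between the lines among those with counts in both, at 5.61 on the log2 scale under the drug (SE 0.22, adjusted p 7.57e-09).

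TAX1BP1, which encodes a receptor for ubiquitin-marked aggregates, gave 35.0, 34.9 and 19.1 CPM in TOM-1 controls and 77.5, 77.9 and 67.9 CPM under the drug. NBR1, the receptor that works beside p62, gave 21.2, 22.8 and 14.5 CPM in controls and 42.6, 38.6 and 34.8 CPM under the drug. In both, control replicate 3 was the lowest library and no groups overlapped. The log2 rise of TAX1BP1 was 1.33 (SE 0.20, adjusted p 0.000477), and 1.09 without that library. That of NBR1 was 0.99 (SE 0.18, adjusted p 0.00164), and 0.81 without it. RS4;11 held TAX1BP1 at 30.6 to 35.4 CPM and NBR1 at 32.3 to 46.4 CPM over its 6 libraries, so that treated TOM-1 reached the NBR1 level of RS4;11 (log2 difference under the drug -0.13, SE 0.18).

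The difference of the effects between the lines passed for all 4 receptors. It was 2.03 for OPTN (SE 0.27, adjusted p 0.000828), 1.33 for TAX1BP1 (SE 0.28, adjusted p 0.0105), 1.09 for SQSTM1 (SE 0.19, adjusted p 0.00357) and 0.85 for NBR1 (SE 0.25, adjusted p 0.0475). Without control replicate 3 these were 2.17, 1.09, 1.14 and 0.68, all past the threshold. The NBR1 call was lost in 13 of 20 alternatives, and that of SQSTM1 with offsets for transcript length (adjusted p 0.08). Exons of genes on the opposite strand cover 22.0% of the exonic bases of SQSTM1.

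**Figure D3:**
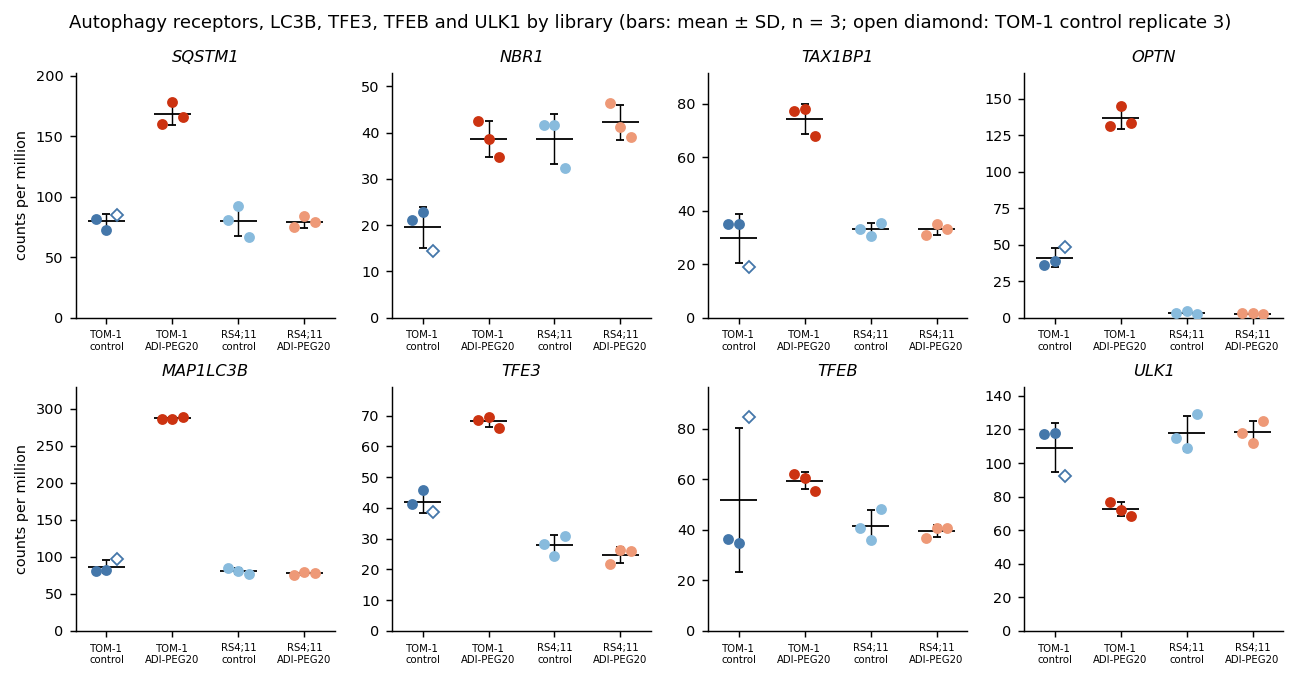
CPM (vertical axes, from 0) in each library of the 4 groups for the 4 receptor genes, MAP1LC3B, TFE3, TFEB and ULK1; horizontal bars are means, vertical bars SD (n = 3), and the open diamond is TOM-1 control replicate 3. Treated TOM-1 lies between 286 and 289 CPM for MAP1LC3B, against 75.8 to 96.7 CPM in all other libraries, and the TFEB diamond at 84.9 CPM lies above every other library.

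Of the 3 lysosomal membrane genes, 1 passed in TOM-1 (median log2 fold change 0.03), and 1 without control replicate 3. That was 33.3% of the class in both fits, against 31.9% and 41.6% of all genes. LAMP2, a heavily glycosylated protein of the lysosomal wall, gave 118, 111 and 70.0 CPM in TOM-1 controls and 150.2, 143 and 150.1 CPM under the drug, a rise of 0.57 (SE 0.17, adjusted p 0.0249), and of 0.37 without control replicate 3. Its sister LAMP1 gave 189, 186 and 223 CPM in controls and 197, 211 and 204.5 CPM under the drug, which overlapped through control replicate 3 alone (log2 0.03, SE 0.11, adjusted p 0.867). Without it both controls lay below every treated library, and LAMP1 still did not pass (log2 0.12, SE 0.07, adjusted p 0.177). As TPM, LAMP1 stood at 123.6 ± 0.85 over control replicates 1 and 2 and at 161.2 ± 5.31 in treated TOM-1. MCOLN1, the lysosomal calcium channel, stayed at 8.82 to 12.6 CPM in TOM-1 (log2 -0.09, SE 0.24, adjusted p 0.838; -0.21 without control replicate 3). Both LAMP1 and MCOLN1 carry the E-box palindrome shown above.

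Among the 6 hydrolases tested, 2 fell and 0 rose in TOM-1 (median log2 fold change -0.15). Called genes were thus 33.3% of the class, against 31.9% of all genes. GAA, the acid glucosidase that degrades glycogen, gave 68.8, 75.5 and 99.9 CPM in controls and 31.4, 32.5 and 36.5 CPM under ADI-PEG20. Every treated library lay below every control, a fall of 1.28 on the log2 scale (SE 0.16, adjusted p 0.000141), and of 1.11 without control replicate 3. RS4;11 held GAA at 40.2 to 50.5 CPM, and the difference between the lines was -1.19 (SE 0.22, adjusted p 0.00579), and -1.02 without that library. CTSA, the protective protein cathepsin A, gave 44.5, 42.7 and 68.0 CPM in controls and 29.6, 28.8 and 29.9 CPM under the drug, a fall of 0.81 (SE 0.17, adjusted p 0.00359), and of 0.57 without control replicate 3. Exons of other genes on the opposite strand cover 28.5% of the exonic bases of CTSA.

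The aspartic protease gene CTSD depended on a single library. It gave 35.9, 39.1 and 109.6 CPM in TOM-1 controls and 63.3, 54.5 and 62.7 CPM under the drug. With the high replicate 3 the log2 fold change was -0.03 (SE 0.33, adjusted p 0.987), and without it CTSD rose by 0.68 (SE 0.10, adjusted p 7.74e-06). CTSB, a cysteine protease, passed only without that library as well (log2 0.47, SE 0.07, adjusted p 2.39e-05, against 0.31 and 0.0933 with it). Without control replicate 3 the hydrolases were thus 2 higher and 2 lower (66.7% called, against 41.6% of all genes), with a median of 0.19. HEXA and GLA passed in neither fit. Exons of another gene on the same strand cover 41.7% of the exonic bases of CTSD.

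In the V-ATPase class 3 of 9 genes passed (33.3%, against 31.9% of all genes), and 5 without control replicate 3 (55.6%, against 41.6%). Of the 3 V0 genes, ATP6V0D1 and ATP6V0E1 fell, and of the 6 V1 genes, ATP6V1C1 rose (median of the 9 log2 fold changes 0.00, and 0.08 without control replicate 3). ATP6V0E1, a small membrane subunit, gave 48.2, 47.4 and 93.0 CPM in TOM-1 controls and 31.6, 32.0 and 24.8 CPM under the drug, a fall of 1.09 (SE 0.23, adjusted p 0.00392), and of 0.70 without control replicate 3. RS4;11 held it at 42.0 to 48.9 CPM, and the difference between the lines was -1.15 (SE 0.32, adjusted p 0.0396), a call lost in 10 of 20 alternatives, and -0.76 without that library. ATP6V0D1, the subunit that links the sectors, gave 71.6, 67.8 and 148 CPM in controls and 52.9, 55.7 and 55.0 CPM under the drug, a fall of 0.81 (SE 0.24, adjusted p 0.0243), and of 0.36 without that library.

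ATP6V0B, of the proton-carrying ring, gave 136, 132 and 366 CPM in TOM-1 controls and 133, 134 and 136 CPM under the drug. The other controls lay beside the treated libraries, and the log2 fold change was -0.65 (SE 0.31, adjusted p 0.128) with replicate 3 and 0.00 (SE 0.06) without it. In RS4;11 the gene gave 106, 109 and 106 CPM in controls and 85.6, 90.5 and 88.8 CPM under the drug, which did not overlap, as was so for 5 of 47 members (16.8% of all genes, and 16.3% of those tested without TOM-1 control replicate 3). Of the V1 genes, ATP6V1C1 rose by 0.39 (SE 0.11, adjusted p 0.0189; 0.31 without control replicate 3). ATP6V1E1 (0.72, SE 0.08) and ATP6V1H (0.47, SE 0.10) passed only without control replicate 3, and then 3 of 6 V1 genes were higher and 2 of 3 V0 genes lower. ATP6V1A, ATP6V1B2 and ATP6V1D passed in neither fit.

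**Figure D4:**
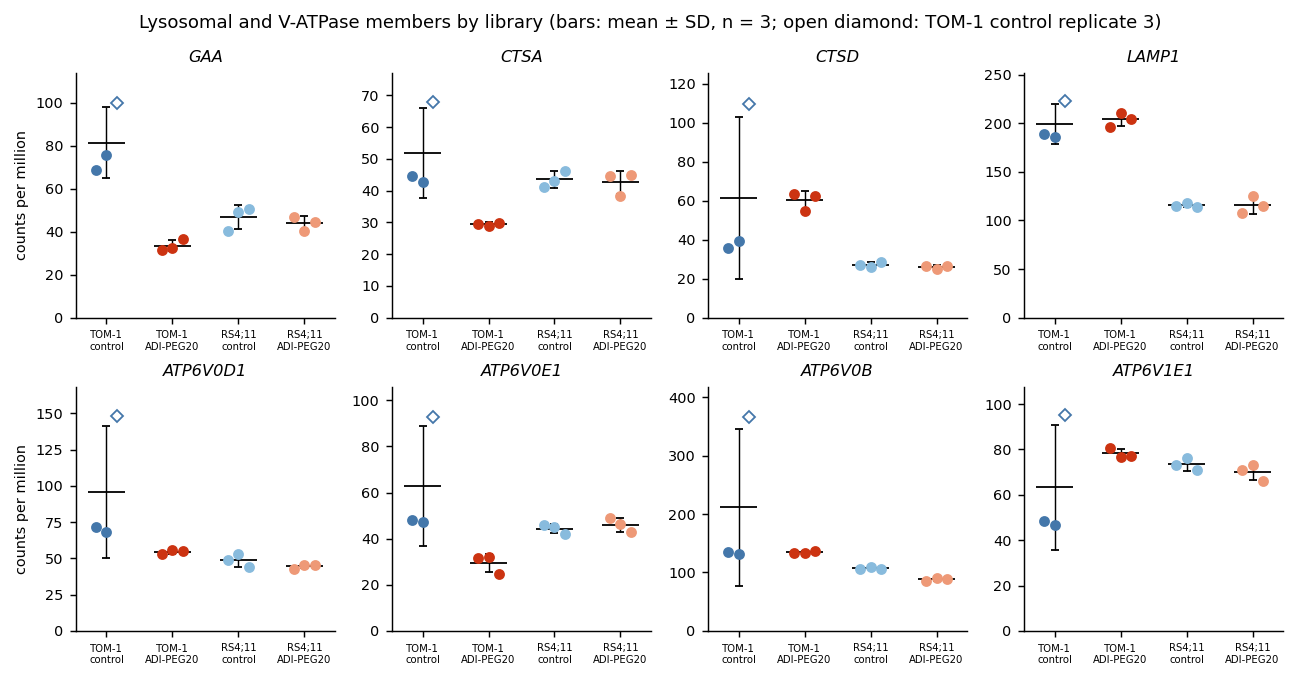
CPM (vertical axes, from 0) in each library of the 4 groups for GAA, CTSA, CTSD, LAMP1, ATP6V0D1, ATP6V0E1, ATP6V0B and ATP6V1E1; horizontal bars are means, vertical bars SD (n = 3), and the open diamond is TOM-1 control replicate 3. The diamond is the highest library in each panel, from 68.0 CPM for CTSA to 366 CPM for ATP6V0B, while GAA, CTSA, ATP6V0D1 and ATP6V0E1 in treated TOM-1 lie below the other controls too.

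Other genes of the pathway, 119 in lists by the same roles, were tabulated beside the members. Of 110 tested in TOM-1, 32 rose and 12 fell (44 and 16 without control replicate 3), with a median of 0.19 and 0.15, and 0 passed in RS4;11, with 1 at an unadjusted p under 0.05 and 9 without control replicate 3 of TOM-1. The shares called were 40.0% and 54.5%, against 31.9% and 41.6% of all genes, for which each direction is given above. By list with all libraries, 75.0% of receptors, 41.2% of initiation and fusion genes and 35.9% of hydrolases were called. The shares were 36.4% for lysosomal membrane, 23.1% for V-ATPase and 42.9% for conjugation. Among 12 further receptors and adaptors, 8 rose and 1 fell (median 0.62), and 9 and 1 without control replicate 3 (median 0.50). They included CCPG1, a receptor for the endoplasmic reticulum (ER), at 17.2, 15.1 and 19.2 CPM in controls and 75.9, 75.7 and 72.8 CPM under the drug (log2 2.13, and 2.21 without control replicate 3). The adaptor WDFY3 (1.77, and 1.32) and the ferritin receptor NCOA4 (0.48, and 0.29) rose, and the ER receptor TEX264 fell by 0.76 (-0.28). Exons of another gene on the same strand cover 38.9% of CCPG1. Among 17 further genes of initiation and fusion, 6 rose and 1 fell, and 8 and 1 without control replicate 3. EPG5, a tethering factor, stood at 1.69 and 1.26, UVRAG of the lipid kinase complex at 1.29 and 1.04, WDR45B at 0.51 and 0.42 and EI24 at -1.27 and -1.26.

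The further hydrolases went both ways, with 7 of 39 higher and 7 lower (median -0.13), and 9 and 10 without control replicate 3 (median -0.08). ASAH1, the acid ceramidase, rose 2.83-fold (adjusted p 3.76e-06), from 80.0 to 84.5 CPM in controls to 234 to 236 CPM under the drug. The proteases CTSC and CTSH fell, CTSC by 1.15 on the log2 scale and CTSH from 0.767, 1.33 and 1.93 CPM to 0.471, 0.382 and 0.629 CPM. SMPD1, the acid sphingomyelinase, was at 0.597, 0.117 and 0 CPM in controls and 1.71, 3.51 and 3.42 CPM under the drug. Of 22 further lysosomal membrane genes, 7 rose and 1 fell, and 11 and 2 without control replicate 3. OSTM1 stood at 1.72 and 1.49, IGF2R at 1.03 and 0.65, PIP4P1 at 0.50 and 0.54 and LAPTM4B at -0.91 and -0.96. Of 13 further V-ATPase genes, 1 rose and 2 fell, and 3 and 2 without control replicate 3. ATP6V1E2 rose by 0.97 (0.78). The V0 gene TCIRG1 fell by 1.46 (-1.23), from 197, 198 and 305 CPM to 77.3, 84.7 and 91.1 CPM, and the accessory gene ATP6AP2 by 0.37 (-0.39). Of 7 further conjugation genes, 3 rose and 0 fell, and 4 and 0 without control replicate 3: ATG4C (0.55 and 0.64), ATG4D (0.53 and 0.61) and TECPR1 (0.38 and 0.34) passed in both fits.

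In control culture 16 of 47 members (34.0%) differed between the lines, 9 higher and 7 lower in TOM-1, against 34.7% of all genes (16.2% higher and 18.4% lower), and 20 (42.6%) without control replicate 3 (52.8%, with 25.4% higher and 27.5% lower). With every library the share of members was near that of all genes, and without control replicate 3 it was below. OPTN was higher in TOM-1 (log2 3.58, SE 0.20, adjusted p 6.62e-08; 3.44 without control replicate 3), followed by CTSD (1.18), ATP6V0B (0.98), ATP6V0D1 (0.98), GAA (0.80) and LAMP1 (0.79). Without replicate 3 the values for CTSD, ATP6V0B, ATP6V0D1, GAA and LAMP1 were 0.46, 0.32, 0.52, 0.63 and 0.70, all still past the threshold. PIK3C3, the lipid kinase VPS34 of initiation, was lower in TOM-1, at 46.3, 41.4 and 18.0 CPM against 151, 138 and 139 CPM (log2 -2.01, SE 0.26, adjusted p 7.85e-05), and 3.25-fold lower without control replicate 3. RS4;11 held ULK2 at a level at least 26.8-fold higher, with the 3 TOM-1 controls set at 3 counts each.

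GABARAPL1 was lower in TOM-1 as well, with 15 counts against 239 (ratio 0.0544, 95% exact interval 0.0300 to 0.0916; 0.0707 without control replicate 3), and so were WIPI1, NBR1 (-0.98, and -0.82 without control replicate 3), ATG101 (-0.76, and -1.13) and ATP6V1C1 (-0.44, and -0.37). MAP1LC3B and SQSTM1 did not pass between the control cultures (log2 0.10 and -0.00). Under ADI-PEG20, 21 members differed between the lines, 14 higher and 7 lower in TOM-1 (47.2% of all genes, with 23.1% higher and 24.0% lower), and 32 without control replicate 3 (62.9%, with 31.4% higher and 31.5% lower). MAP1LC3B was then higher in TOM-1 by 1.88 (SE 0.11, adjusted p 7.15e-08), and SQSTM1 by 1.09 (SE 0.13, adjusted p 3.09e-05). Libraries of the lines did not overlap for 22 members in control culture (42.7% of all genes), 28 without control replicate 3 (66.5%), and for 34 under the drug (70.6%, and 68.7% of the genes tested without control replicate 3). These comparisons share libraries with the treatment effects above.

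**Figure D5:**
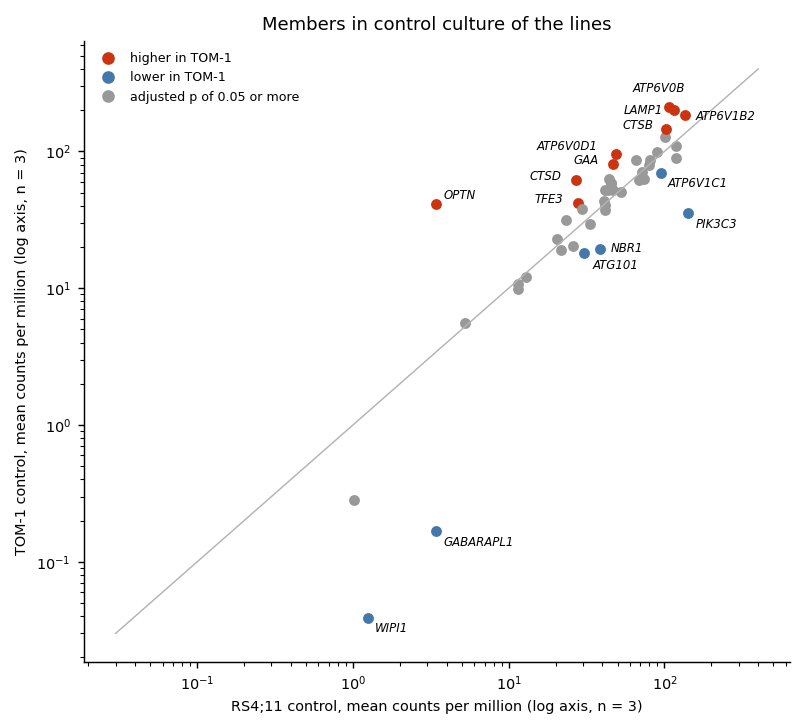
Mean CPM in control culture (n = 3 libraries) of RS4;11 (horizontal, log axis) and TOM-1 (vertical, log axis) for 46 members, coloured by the edgeR call between the lines; CTSL and ULK2, at 0 in TOM-1, are left out. OPTN stands above the line of equal level, and PIK3C3, GABARAPL1 and WIPI1 stand below it.

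Per transcript length, on the TPM scale, ATP6V0B was the most abundant member in the control cultures of both lines, with and without TOM-1 control replicate 3. It stood at 185 ± 71.7 TPM in TOM-1 (SD, n = 3), at 143.5 TPM over replicates 1 and 2, and at 113 ± 2.21 TPM in RS4;11. ATP6V0E1 came next in RS4;11 at 102 ± 5.48 TPM. In TOM-1 the next places rested on replicate 3, with ATP6V0E1 at 124 ± 21.2 TPM and LAMP1 at 116 ± 13.4 TPM over all controls, and LAMP1 at 124 TPM and ATP6V0E1 at 111.5 TPM over replicates 1 and 2. MAP1LC3B stood at 54.5 ± 6.51 TPM in TOM-1 (58.2 TPM over replicates 1 and 2) and at 56.6 ± 3.09 TPM in RS4;11. At the low end in TOM-1 were GABARAPL1, MITF and WIPI1, at 0.155, 0.150 and 0.0436 TPM, and at 0.232, 0.225 and 0.0654 TPM over replicates 1 and 2. In RS4;11 MITF at 0.527 ± 0.109 TPM was the lowest above 0. Of the 8 members called lower in TOM-1, ULK1, CTSA, GAA, ATP6V0D1 and ATP6V0E1 also had lower mean TPM under the drug. That held with and without control replicate 3.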

How the data were processed

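The deposited table holds raw read counts per gene for 12 libraries, with no normalization by the authors. Per the submitters' processing notes, STAR, SAMtools, featureCounts and the hg38 build were used; versions, annotation release and strand setting are not given in the sources used here. Columns were matched to samples by name. Counts were tested with edgeR 4.0.16 (R 4.3.3): filterByExpr, TMM scaling, 1 mean per group over all 12 libraries, the quasi-likelihood test, and Benjamini-Hochberg adjustment over 17349 genes (18321 without TOM-1 control replicate 3) at 0.05. CPM are counts scaled to TMM library size. TPM are counts scaled by GENCODE 29 exonic length and then to a common sum per library, without TMM factors. Each edgeR SE is the size of the log2 fold change divided by the square root of the quasi-likelihood F statistic. It was thus derived from the test and not fitted directly. Ratios of low counts carry exact 95% intervals, and a count of 0 was read as up to 3 counts. Both of these cover counting error only. Alternatives were DESeq2 1.42.0 (Wald test, and its size factors in edgeR), no filter, a replicate block, limma 3.58.1 voom with sample quality weights, offsets for transcript length, the 6 libraries of a comparison alone, and leaving out each library. Combinations of the Wald test or length offsets with leaving out TOM-1 control replicate 3 were chosen after seeing the data. Scripts were tested on simulated data. The members and gene lists were chosen with earlier results of these data known. All members could be named. Of other pathway genes, those with the 2 largest and the 2 smallest TOM-1 fold changes per list among those passing in both fits were named, and MAP1LC3B2 was named besides for its sequence shared with MAP1LC3B, after its values were seen. A further marker gene is not reported here.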

Additional observations from a re-analysis of the deposited data

Results flagged for a closer look

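The effect of ADI-PEG20 differed between the lines, by a test of the difference itself (edgeR, TOM-1 effect minus RS4;11 effect, log2), for 9 members. The difference was 0.87 for TFE3, 1.78 for MAP1LC3B, 1.09 for SQSTM1, 0.85 for NBR1, 1.33 for TAX1BP1 and 2.03 for OPTN. It was -1.19 for GAA and -1.15 for ATP6V0E1. For WIPI1, with 3 counts over the TOM-1 controls, the fitted value of 5.43 depends on the prior count. TFE3, WIPI1, MAP1LC3B, TAX1BP1, OPTN and GAA passed in all 20 alternatives, SQSTM1 in 19, ATP6V0E1 in 10 and NBR1 in 7. Each line stands for its genotype alone, so line and genotype cannot be told apart.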

How the results depend on the processing

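In TOM-1, 11 of the 20 called members passed in all 21 alternatives (TFE3, ULK1, WIPI1, MAP1LC3B, the 4 receptors, CTSA, GAA and ATP6V0E1). Calls were lost for ATG3 in 16, ATP6V1C1 in 10, LAMP2 and ATG2A in 6, ATG4B in 5, RB1CC1 and ATP6V0D1 in 4, WIPI2 in 3 and ATG12 in 1. The count of called members in TOM-1 was 12 with its 6 libraries alone and 32 with voom weights (12 to 29 leaving out a library). In RS4;11 it was 1 with the Wald test without TOM-1 control replicate 3 (0 to 1). For the difference it was 24 with that test and 25 with length offsets, both without that library, and 25 with voom (7 to 25). Between control cultures it was 10 with 6 libraries alone (12 to 20), between treated cultures 33 with 6 alone and 32 with voom (16 to 32), and for other pathway genes in TOM-1 19 with 6 alone (29 to 60). The share of all genes called under each of these settings is not given here. It moved between fits as well, from 31.9% to 41.6% in TOM-1 and from 11.9% to 30.4% for the difference without control replicate 3. The counts in this paragraph are therefore not read as results about the members.

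Class medians leaving out a library ranged from 0.65 to 0.74 for the TFEB family, 0.06 to 0.19 for initiation, 0.11 to 0.47 for conjugation, 1.11 to 1.25 for receptors, -0.05 to 0.12 for lysosomal membrane, -0.40 to 0.19 for hydrolases and -0.06 to 0.08 for V-ATPase. With length offsets the conjugation median was 0.10, the receptor median 0.87 (1.00 without control replicate 3) and the V-ATPase median -0.21. The conjugation median was 0.10 with 6 libraries alone, 0.46 with the Wald test without control replicate 3 and 0.47 with voom, and the hydrolase median 0.17 and 0.20 under the latter pair. The cause was not tested.

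Signs turned with length offsets in TOM-1 for TFEB (-0.039), ATG13 (-0.11), ATG5 (-0.050), CTSB (-0.047), HEXA (-0.21) and TECPR1 (-0.020), for the differences of ATG13 (-0.066) and CTSB (-0.087), and for ATG5 between controls (0.0094). Without TOM-1 control replicate 3, under the Wald test and length offsets, GABARAPL2 was 0.25 and 0.26, CTSD 0.67 and 0.68, and the ATP6V0B difference 0.27 and 0.27, with ATP6V0B itself at 0.0044 under length offsets. With voom these were 0.25, 0.66 and 0.27. The CTSD difference was -0.035 with the Wald test and -0.033 with DESeq2 size factors. Leaving out a library gave TOM-1 ranges of -0.059 to 0.74 for TFEB, -0.14 to 0.45 for ATG101, -0.19 to 0.26 for GABARAPL2, -0.33 to 0.68 for CTSD and -0.93 to 0.0026 for ATP6V0B, ranges of the difference of -0.27 to 0.74 for CTSD and -0.65 to 0.28 for ATP6V0B, and -0.031 to 0.34 for LAMP2 between controls. The replicate block gave 20, 0, 9, 16 and 21 members in the 5 comparisons and turned CTSD to 0.083, and the numbers did not pair the samples. Genes at a few counts, such as WIPI1, MITF and GABARAPL1 in TOM-1, are limited by depth.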
